A study of Mus musculus with 8 samples.

Results

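The 10 genes described here include those of the oxidative stress sensor KEAP1 and the transcription factor NRF2 that it holds in check. The others encode enzymes that dispose of peroxides and quinones or serve such enzymes, and OSGIN1, an oxidative stress-induced growth inhibitor. The 10 were chosen by name (Nfe2l2, Keap1, Nqo1, Txnrd1, Srxn1, Osgin1, Prdx1, Gpx1, Gpx4 and Cat), and all 10 were found among the 33212 genes counted in mouse liver. The question was whether their transcripts differed between mice without hepatocyte Nnmt and control mice on a diet that injures the liver. Nnmt encodes nicotinamide N-methyltransferase, which methylates nicotinamide with a methyl group from S-adenosylmethionine.

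Liver RNA of Nnmt KO mice (4 libraries) and control mice (4 libraries) of the C57BL/6 strain was sequenced. The Nnmt KO mice were Alb-Cre::Nnmt flox/flox males, labelled Nnmt LKO, in which the albumin promoter drives Cre recombinase in hepatocytes, so that the other cells of the liver keep Nnmt. The control mice, labelled WT, were Nnmt flox/flox males without Cre, so Cre itself went together with the deletion. Both groups were kept for 8 weeks on a diet deficient in both methionine and choline (MCD), and no group on a normal diet is part of the comparison, so the values cannot show what the diet did. The age of the mice is not given in the sources used here, nor is it said whether each library came from its own mouse. The p-values set the difference between genotypes against the spread among these libraries within a genotype.

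NRF2, the product of Nfe2l2, is a transcription factor that pairs with small MAF proteins on antioxidant response elements in the DNA. In unstressed cells KEAP1 binds NRF2 and hands it to a CUL3 ubiquitin ligase for destruction, and electrophiles or peroxides that modify cysteines of KEAP1 stop this. The control acts mainly on the NRF2 protein, so transcripts of NRF2's targets are commonly read as its output. In the liver these targets serve detoxification, the thioredoxin and glutathione systems and the supply of NADPH.

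Transcript starts of the 10 genes were searched for the letters that NRF2 and its MAF partners recognise, in 15 windows that ran from 250 bases before to 50 bases after each start site of the RefSeq annotation of GRCm38.p6, on both strands. The core of the antioxidant response element, TGACNNNGC, was found in 4 of the 15 windows, those of 4 genes (Nfe2l2, Txnrd1, Srxn1 and Prdx1), and in 12.4% of 32851 windows of all genes. TGANTCAGC, of the same length with fewer free letters, was found in 3 of the 15 windows, those of Srxn1, Osgin1 and Prdx1, and in 1.19% of all windows. The windows of these 3 genes are shown because they carry TGANTCAGC, and that of Nqo1 because it had the largest difference between genotypes of the 10 genes. Each is written on its own gene's strand, and capitals mark bases of either element.
Srxn1, chr2:152105274-152105573, plus strand: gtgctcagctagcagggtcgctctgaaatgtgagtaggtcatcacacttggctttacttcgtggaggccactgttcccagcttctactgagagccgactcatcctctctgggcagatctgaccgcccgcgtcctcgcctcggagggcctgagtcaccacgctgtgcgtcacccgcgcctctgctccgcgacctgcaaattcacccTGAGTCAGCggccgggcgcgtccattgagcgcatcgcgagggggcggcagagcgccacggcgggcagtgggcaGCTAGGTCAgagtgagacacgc
Osgin1, chr8:119436897-119437196, plus strand: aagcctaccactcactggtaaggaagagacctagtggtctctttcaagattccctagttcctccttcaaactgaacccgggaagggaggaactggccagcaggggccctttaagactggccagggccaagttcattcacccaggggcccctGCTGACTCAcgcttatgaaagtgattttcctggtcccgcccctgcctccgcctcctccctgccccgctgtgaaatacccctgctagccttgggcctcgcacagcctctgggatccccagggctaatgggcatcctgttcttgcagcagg
Prdx1, chr4:116685349-116685648, plus strand: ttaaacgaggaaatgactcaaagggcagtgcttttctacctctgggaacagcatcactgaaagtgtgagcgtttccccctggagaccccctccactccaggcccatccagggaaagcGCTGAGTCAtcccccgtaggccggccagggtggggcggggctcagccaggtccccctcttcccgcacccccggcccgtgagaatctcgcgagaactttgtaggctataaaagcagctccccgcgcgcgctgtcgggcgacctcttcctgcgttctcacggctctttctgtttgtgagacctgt
Nqo1, chr8:107403156-107403455, minus strand: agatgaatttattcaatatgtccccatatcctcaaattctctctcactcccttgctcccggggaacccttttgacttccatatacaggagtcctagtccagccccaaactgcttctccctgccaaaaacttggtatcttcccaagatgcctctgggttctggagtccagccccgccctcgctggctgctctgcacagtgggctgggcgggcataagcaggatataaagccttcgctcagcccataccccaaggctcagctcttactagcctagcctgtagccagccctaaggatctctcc
In Srxn1, TGANTCAGC began 45 bases before the start site, and TGACNNNGC lay on the opposite strand within the first 50 transcribed bases. In Osgin1, TGANTCAGC lay 99 bases before the start site, on the opposite strand. In Prdx1 the same 9 bases, 133 bases before the start site and on the opposite strand, met both definitions. The window of Nqo1 held neither, which says only that these letters are not in this stretch.

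The libraries held 75020072 to 87934362 counts each, and 3 counts stood for 0.0341 to 0.04 CPM by library total alone. All other CPM values are counts scaled by the library total times its TMM factor, a correction for the make-up of a library. The letters a to d name the libraries of a genotype. Nnmt itself ranged from 31.8 to 83.0 CPM in Nnmt KO mice and from 84.9 to 224 CPM in control mice (log2 fold change -1.28, standard error 0.33, edgeR adjusted p = 0.123, DESeq2 adjusted p = 0.00467). The targeted gene was thus lower in each of the 4 KO libraries, though not past the adjusted threshold of edgeR in whole liver. Library a of the Nnmt KO mice stood apart. Its TMM factor was 1.21 against 0.952 to 0.977 in the other KO libraries and 0.876 to 1.06 in the controls. Summed over 8 hepatocyte markers, it had the lowest level, 65098 CPM, against 76113 to 114452 CPM in the 7 other libraries. The sums of the marker lists for macrophages, neutrophils, stellate cells and cholangiocytes were higher in it than in any other library; they reached 827 CPM for stellate cells against 352 to 524 CPM elsewhere, and 1234 CPM for macrophages against 529 to 1141 CPM. The hepatocyte markers were present throughout, as the label liver implies, and 0 of 8 passed an unadjusted p of 0.05 between genotypes. In bulk tissue, fewer cells of a type and less RNA per cell cannot be told apart. Values without library a are given beside each of the 10 genes and beside the counts of calls that differ without it.

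All 10 genes were expressed well above the filter on low counts. To compare levels between genes, CPM was divided by the exonic length of each gene in kilobases, and the mean over the 8 libraries was taken. This length joins all annotated exons of a gene and can exceed that of the transcript made, so the order of genes depends on it. On this scale Gpx1, the cytosolic glutathione peroxidase, was the most abundant with 966 CPM per kb, above 99.6% of 15146 genes. It was followed by Gpx4, which reduces lipid peroxides in membranes (449), and Cat, the peroxisomal catalase (434), whose ranges over the libraries overlapped. The next pair, Prdx1, an abundant thioredoxin-dependent peroxidase (224), and Osgin1, an oxidative stress-induced growth inhibitor (191), overlapped in the same way. Below them, in levels per kb, came Srxn1, the sulfiredoxin that repairs over-oxidised peroxiredoxins (78.9), and Txnrd1, the cytosolic thioredoxin reductase (24.2), each apart from its neighbours. Keap1 (17.1) and Nfe2l2 (17.0) could not be ordered against each other. Nqo1, a quinone reductase and a standard readout of NRF2, was the lowest with 11.6 CPM per kb, although still above 80.2% of the genes.

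None of the 10 genes differed between genotypes at an adjusted p of 0.05 by edgeR's quasi-likelihood test, adjusted by Benjamini-Hochberg over 15291 genes (lowest adjusted p = 0.359). DESeq2 also called 0 of 10 (lowest adjusted p = 0.285). Over all genes tested, 49 passed, which is 0.32%. At an unadjusted p of 0.05, 2 of the 10 passed with either tool, Nqo1 on the higher side and Keap1 on the lower side in Nnmt KO mice. Among all tested genes 12.6% passed this threshold, 5.45% on the higher and 7.13% on the lower side, so that a count of 2 of 10 is near the background. Without KO library a, 1 of the 10 passed the unadjusted threshold (Osgin1, on the lower side), and 149 of all tested genes passed the adjusted one. In 0 of the 10 genes were the libraries of the genotypes fully apart, against 8.16% of all tested genes, 3.34% apart on the higher and 4.81% on the lower side. The log2 fold change was above 0 for 2 and below 0 for 8 of the 10, with a median of -0.07 against 0.02 for all tested genes. The 95% intervals together ran from -0.63 to 0.76 on the log2 scale, or from 0.648-fold to 1.70-fold, so a 2-fold difference in either direction lies outside the interval of each of the 10 genes.

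**Figure D1:**
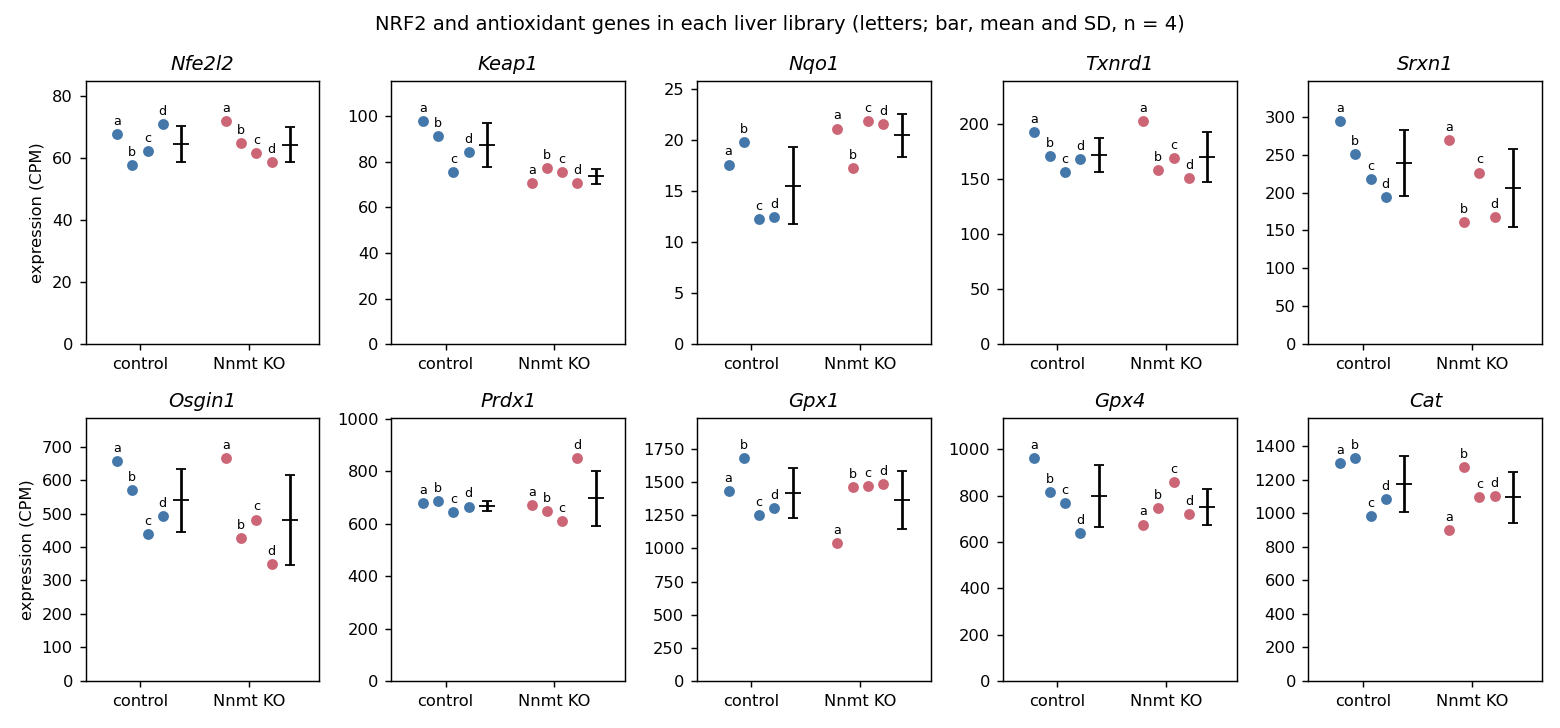
Expression of the 10 genes in each liver library, in TMM-normalised CPM on linear axes that start at 0. Each letter is a library, and the bar at the side gives the mean and SD of 4 libraries. The genotypes overlap in all 10 panels, and Nnmt KO library a is the highest KO library for Nfe2l2, Txnrd1, Srxn1 and Osgin1 and the lowest for Keap1, Gpx1, Gpx4 and Cat.

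Of the regulators, Nfe2l2 (chromosome 2, 75675513 to 75704641, minus strand, in GENCODE's M21 annotation of GRCm38) was at the same mean level in both genotypes. Its expression was 72.0, 65.0, 61.7 and 58.8 CPM in KO libraries a to d, and 67.8, 57.8, 62.4 and 71.0 CPM in control libraries a to d. KO library a was the highest of the 8 and control library b the lowest, and both genotypes filled nearly the same range. Between genotypes the log2 fold change was -0.01 (standard error 0.11, 95% interval -0.25 to 0.23, edgeR adjusted p = 0.983), and -0.07 without KO library a. Transcript levels of Nfe2l2 say nothing of the amount of NRF2 protein, which was not measured here.

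Keap1 (chromosome 9, 21229730 to 21239361, minus strand) was lower in Nnmt KO mice by a margin near the threshold. The KO libraries a to d had 70.5, 77.1, 75.6 and 70.9 CPM, and the control libraries 97.8, 91.4, 75.4 and 84.1 CPM. The KO libraries lay close together, and all 4 were below the control median, but control library c was lower than KO libraries b and c. The means were 73.5 ± 3.35 CPM in Nnmt KO mice and 87.2 ± 9.62 CPM in control mice (SD, n = 4 each). The log2 fold change was -0.25 (standard error 0.11, 95% interval -0.48 to -0.01), with an unadjusted edgeR p of 0.0422 and an adjusted p of 0.374. The unadjusted p went above 0.05 when any of the 4 KO libraries, control a or control b was left out, with log2 fold changes between -0.17 and -0.27 in those fits and -0.23 without KO library a. It was 0.118 when counts were scaled by library size alone. Keap1 lies 27.4 Mb from Nnmt on the same chromosome. An antisense transcript, Gm16754, overlaps the end of Keap1, and reads of either strand cannot be told apart where strand was not used in counting. Gm16754 was counted at 0.305 CPM in Nnmt KO and 0.456 CPM in control mice. Its part in the counts of Keap1 was not tested. Overlaps of other genes with the rest of the 10 are not described here.

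Of the enzymes that NRF2 induces, Nqo1 (chromosome 8, 107388225 to 107403206, minus strand) had the largest difference of the 10 genes. Its expression was 21.1, 17.3, 21.8 and 21.5 CPM in KO libraries a to d and 17.6, 19.8, 12.3 and 12.5 CPM in control libraries a to d. Each KO library was above the control median, but KO library b was below control libraries a and b, while control libraries c and d were well below the rest. The mean was 20.4 ± 2.12 CPM in Nnmt KO mice and 15.5 ± 3.77 CPM in control mice (SD, n = 4 each). The log2 fold change was 0.40 (standard error 0.17, 95% interval 0.03 to 0.76), with an unadjusted edgeR p of 0.0374 and an adjusted p of 0.359. The unadjusted p went above 0.05 without KO library a, c or d or without control library c or d, and the log2 fold change was then between 0.30 and 0.38, the latter without KO library a. Nqo1 is the gene of the 10 with the fewest counts, at 1050 to 1931 per library.

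Txnrd1 (chromosome 10, 82833951 to 82897712, plus strand) was at 203, 159, 169 and 151 CPM in the KO libraries and at 193, 171, 156 and 168 CPM in the control libraries. The highest and the lowest of the 8 values were both from Nnmt KO mice. Its log2 fold change was -0.02 (standard error 0.12, 95% interval -0.29 to 0.26, edgeR adjusted p = 0.971), and -0.11 without KO library a.

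For Srxn1 (chromosome 2, 152105516 to 152111376, plus strand), whose window above carries both elements, the KO libraries had 269, 161, 226 and 168 CPM and the control libraries 294, 250, 217 and 194 CPM. Library a was the highest of either genotype, and the KO libraries lay in a higher and a lower pair. For Srxn1 the log2 fold change was -0.21 (standard error 0.19, 95% interval -0.63 to 0.20, edgeR adjusted p = 0.679). Without KO library a it was -0.37, with an unadjusted edgeR p of 0.0529 and an adjusted p of 0.385.

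Osgin1 (chromosome 8, 119434124 to 119446256, plus strand) was likewise highest in the libraries lettered a. Its expression was 666, 427, 482 and 348 CPM in the KO libraries and 656, 569, 438 and 493 CPM in the control libraries. KO library a was the highest of all 8 and KO library d the lowest, and the coefficient of variation among KO libraries, 28.1%, was the largest of the 10 genes. The difference for Osgin1 was -0.17 on the log2 scale (standard error 0.20, 95% interval -0.61 to 0.28, edgeR adjusted p = 0.774). Leaving out KO library a moved it to -0.36, with an unadjusted edgeR p of 0.0492 and an adjusted p of 0.375. For Srxn1, Osgin1 and Txnrd1, the libraries lettered a were the highest within each genotype. The letters follow column order within a genotype and do not pair libraries across genotypes. KO library a, which had the lowest hepatocyte markers, was also the highest KO library for Nfe2l2 and the lowest for Keap1, Gpx1, Gpx4 and Cat. The part of cell make-up in these values was not tested.

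Prdx1 (chromosome 4, 116685544 to 116700822, plus strand) was the steadiest of the 10 genes among control mice, at 679, 688, 644 and 666 CPM, a coefficient of variation of 2.87%. The KO libraries had 673, 650, 612 and 852 CPM. Library d was thus the highest of the 8, and the other KO libraries lay among or just below the controls. The difference for Prdx1 was 0.06 on the log2 scale (standard error 0.13, 95% interval -0.23 to 0.35, edgeR adjusted p = 0.892), and it was 0.07 without KO library a and -0.05 without KO library d.

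Gpx1 (chromosome 9, 108338903 to 108340343, plus strand) was at 1041, 1467, 1471 and 1487 CPM in KO libraries a to d and at 1431, 1684, 1252 and 1307 CPM in control libraries a to d. Libraries b, c and d of the KO mice nearly coincided, whereas library a was the lowest of all 8. The difference for Gpx1 was -0.05 on the log2 scale (standard error 0.16, 95% interval -0.41 to 0.30, edgeR adjusted p = 0.917) and turned to 0.06 without KO library a. Gpx1 lies 59.7 Mb from Nnmt.

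Gpx4 (chromosome 10, 80047166 to 80056439, plus strand) was at 675, 745, 858 and 722 CPM in the KO libraries and at 963, 816, 769 and 640 CPM in the control libraries. Controls a and d formed the limits, and all KO libraries lay between them. Its log2 fold change was -0.09 (standard error 0.15, 95% interval -0.42 to 0.24, edgeR adjusted p = 0.852), and -0.04 without KO library a.

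Cat (chromosome 2, 103453849 to 103485160, minus strand) was at 902, 1274, 1097 and 1103 CPM in the KO libraries and at 1297, 1330, 984 and 1087 CPM in the control libraries. KO library a was again the lowest of all 8. For Cat the log2 fold change was -0.10 (standard error 0.15, 95% interval -0.44 to 0.24, edgeR adjusted p = 0.824) and -0.02 without KO library a.

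**Figure D2:**
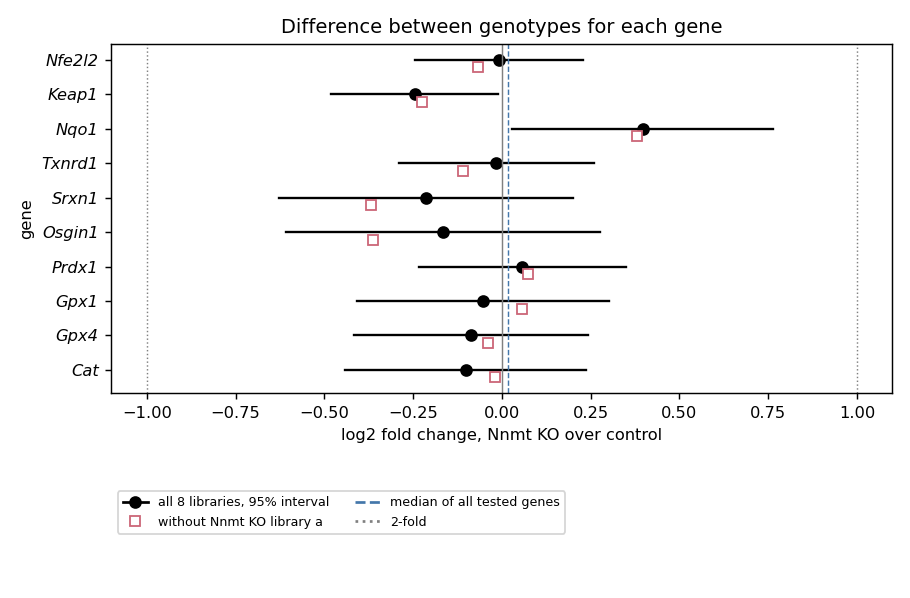
Log2 fold change of each of the 10 genes, Nnmt KO over control. Filled circles with bars are the values from all 8 libraries with 95% intervals, open squares the values without Nnmt KO library a, the dashed line the median of all tested genes, and the dotted lines a 2-fold difference. The intervals of 8 genes hold 0, those of Nqo1 and Keap1 lie just beside it, and no interval reaches 2-fold.

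The wider pathway was followed in 7 lists of genes. Among 15 further regulators of NRF2, 0 were higher and 2 lower at an unadjusted p of 0.05, and the median log2 fold change was -0.00. This list joins partners of NRF2 with its inhibitors and turnover factors, so its median gives no direction for NRF2 activity. The 2 genes are 13.3% of the list, against 12.6% of all tested genes past this p and 7.13% lower, and without KO library a 1 was past it. They were Mafg, a small MAF partner of NRF2, and Sqstm1, the autophagy receptor p62, which binds KEAP1 and is itself an NRF2 target. Mafg was at 67.6 to 91.1 CPM in KO libraries and 88.5 to 103 CPM in control libraries, and only KO library c lay among the controls. Its log2 fold change was -0.31 (standard error 0.12, edgeR adjusted p = 0.302). Sqstm1 was at 1165, 956, 1080 and 875 CPM in KO libraries and 1370, 1365, 1289 and 1080 CPM in control libraries. Only KO library a was above the lowest control, and the log2 fold change was -0.32 (standard error 0.14, edgeR adjusted p = 0.383). Leaving out 1 library took the unadjusted p above 0.05 in 4 of 8 cases for Mafg (KO a or b, control a or b) and in 6 of 8 for Sqstm1 (KO b, c or d, control a, b or c).

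Among 36 other genes that NRF2 is known to induce, 6 were higher and 1 lower at an unadjusted p of 0.05. The shares were 16.7% higher and 2.78% lower, against 5.45% and 7.13% of all tested genes, and the median log2 fold change was 0.12, with 25 values above 0 and 11 below. Without KO library a the count was 5 higher and 3 lower, and without control library d it was 3 higher and 1 lower. The list was chosen with earlier results of these data known, and its genes are not independent of each other. Sqstm1, an NRF2 target that was lower, is counted with the regulators and not in this list. Ephx1, the microsomal epoxide hydrolase, was at 505, 585, 654 and 468 CPM in KO libraries and 459, 421, 357 and 323 CPM in control libraries. The genotypes did not overlap, and the log2 fold change was 0.50 (standard error 0.15, edgeR adjusted p = 0.196, DESeq2 adjusted p = 0.0403). Ces1g, a liver carboxylesterase from a cluster of similar genes that can share reads, was at 110, 135, 187 and 127 CPM in KO libraries and 108, 103, 70.0 and 91.8 CPM in control libraries. KO library a was only just above control library a, and the log2 fold change was 0.58 (standard error 0.18, edgeR adjusted p = 0.209). The other 4 higher genes were the transporter Abcc4 (log2 fold change 0.52), the fatty aldehyde dehydrogenase Aldh3a2 (0.30), the UDP-glucose dehydrogenase Ugdh (0.25) and the reductase Ptgr1 (0.75), which were named after their values were seen. Ptgr1 was highest in KO library a, with 8.34 CPM there and 2.34 to 3.96 CPM in the 7 other libraries.

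Other widely used NRF2 targets on that list did not pass in either direction. Hmox1, heme oxygenase, had a log2 fold change of 0.37 (edgeR adjusted p = 0.455) and was highest in KO library a, at 185 CPM against 80.4 to 127 CPM elsewhere. Gclc and Gclm, the catalytic and modifier subunits of the enzyme that starts glutathione synthesis, had values of -0.35 (adjusted p = 0.446) and 0.09 (adjusted p = 0.754) in the same edgeR fit. Glutathione reductase, Gsr, had 0.21 (adjusted p = 0.461), and the cystine transporter Slc7a11 had -0.29 (adjusted p = 0.793) in that fit of edgeR. These 5 genes were named after their values were seen. The lower gene was Taldo1, transaldolase of the pentose phosphate pathway, with 107 to 125 CPM in Nnmt KO and 128 to 153 CPM in control mice and a log2 fold change of -0.29 (edgeR adjusted p = 0.268).

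**Figure D3:**
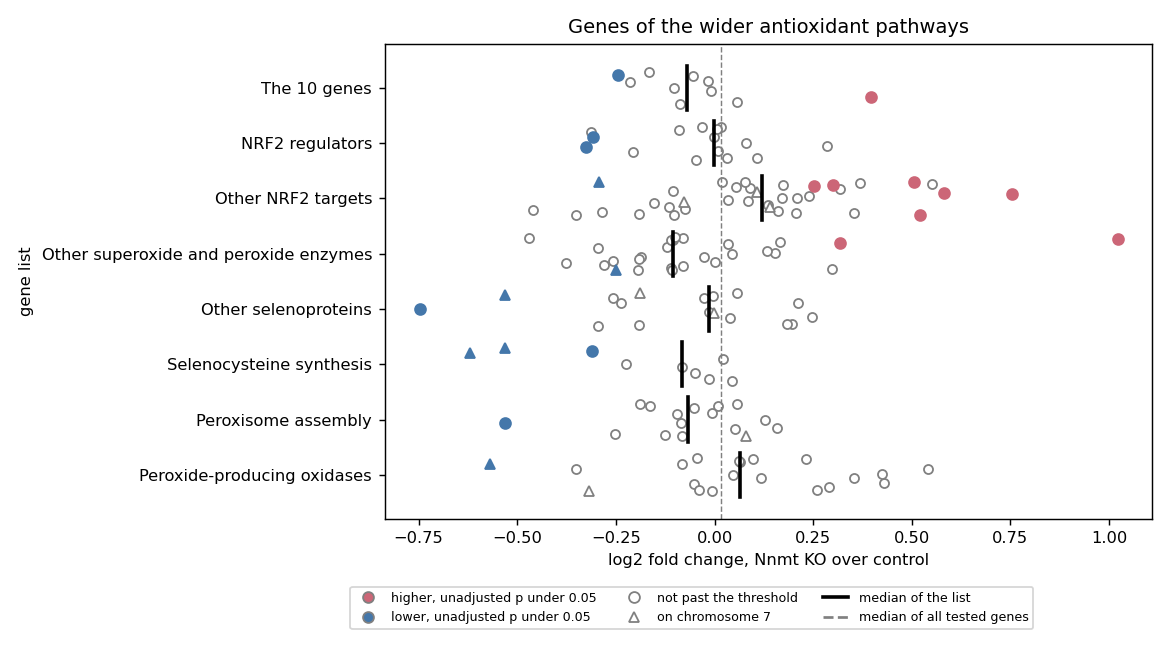
Log2 fold change, Nnmt KO over control, of each tested gene in the 10 genes and in the 7 wider lists, in rows. Filled symbols passed an unadjusted p of 0.05, triangles lie on chromosome 7, the thick bar is the median of a list and the dashed line that of all tested genes. Txnip stands furthest to the right, at 1.02, and many of the lower filled symbols are triangles.

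Taldo1 lies on chromosome 7, where counts differed between genotypes as a block. From 75 Mb to the end of that chromosome, the median over 554 tested genes was -0.28 on the log2 scale, and 37.4% of them were lower at an unadjusted p of 0.05, against 5.86% of the genes outside chromosome 7. None of the 10 genes lies on chromosome 7. Of the other genes named here, Taldo1, Glrx3, Sephs2, Pstk and Paox lie in that stretch, and the part of the stretch in their values was not tested.

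Among 27 other genes of superoxide and peroxide metabolism, not all of them enzymes, 2 were higher and 1 lower at an unadjusted p of 0.05. This is 11.1% of the list against 12.6% of all tested genes, and the median log2 fold change was -0.10. The 2 higher genes were Txnip, an inhibitor of thioredoxin, and the sestrin Sesn1. Without KO library a, 1 was higher and 1 lower. Txnip was the single gene of the 7 lists that passed edgeR's adjusted threshold, and it rose in Nnmt KO mice. It encodes a protein that binds and inhibits thioredoxin and is also known as a glucose-responsive gene. Its expression was 354, 285, 358 and 304 CPM in the KO libraries and 193, 192, 149 and 108 CPM in the control libraries. The lowest KO library was far above the highest control, and the means were 325 ± 36.3 and 160 ± 40.5 CPM (SD, n = 4 each). The log2 fold change was 1.02 (standard error 0.18, 95% interval 0.62 to 1.42), with an edgeR adjusted p of 0.0496 that lay just under the threshold. The edgeR adjusted p was 0.0512 with DESeq2's size factors, 0.0968 without the filter on low counts and 0.0428 with library size only. DESeq2's own test gave an adjusted p of 3.21e-05. Leaving out 1 library kept the log2 fold change between 0.87 and 1.14, while the edgeR adjusted p ran from 0.0421 without KO library a to 0.159 without KO library c and was above 0.05 without any library other than KO a. Sesn1, a sestrin that responds to p53, was at 9.31 to 12.5 CPM in KO and 7.48 to 9.93 CPM in control mice (log2 fold change 0.32, edgeR adjusted p = 0.383). Glrx3, a glutaredoxin on chromosome 7, was at 55.5 to 70.5 CPM in KO and 70.6 to 76.9 CPM in control mice (log2 fold change -0.25, edgeR adjusted p = 0.333). The superoxide dismutases Sod1, Sod2 and Sod3 and the peroxiredoxins Prdx2 to Prdx6 were among the 24 genes that did not pass.

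**Figure D4:**
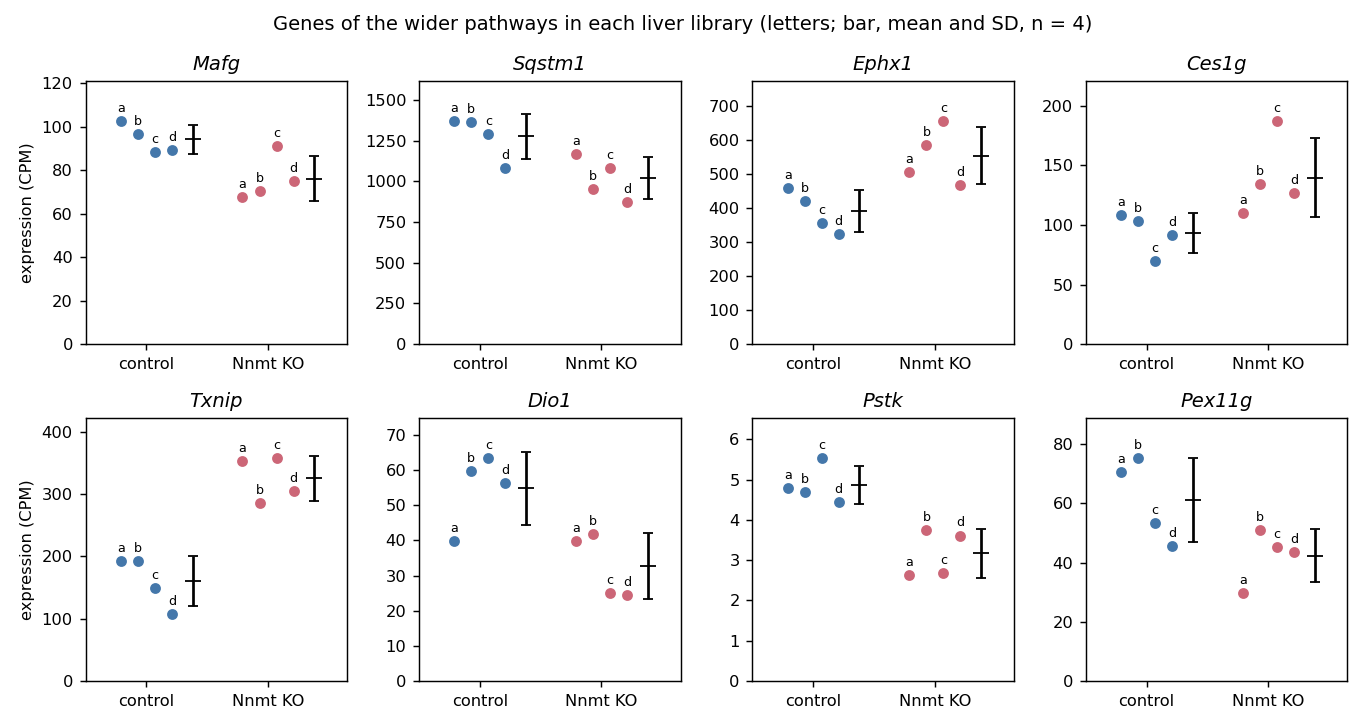
Expression of 8 genes of the wider lists in each liver library, in TMM-normalised CPM on linear axes from 0, with the mean and SD of 4 libraries at the side. Txnip, Ephx1, Ces1g and Pstk do not overlap between genotypes, whereas Mafg, Sqstm1, Dio1 and Pex11g do.

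Gpx1, Gpx4 and Txnrd1 contain selenocysteine, an amino acid that is built on its own tRNA and inserted at a UGA codon. Of 17 other selenoproteins, 0 were higher and 2 lower at an unadjusted p of 0.05, which is 11.8% of the list against 7.13% of all tested genes on the lower side, with a median log2 fold change of -0.02. Dio1, the liver deiodinase that converts thyroxine to its active form, was at 39.8, 41.7, 24.9 and 24.4 CPM in KO libraries and 39.9, 59.8, 63.5 and 56.5 CPM in control libraries. Control library a lay at the level of the higher KO libraries, and the log2 fold change was -0.75 (standard error 0.21, edgeR adjusted p = 0.149, DESeq2 adjusted p = 0.0255). Of 9 genes for the synthesis and insertion of selenocysteine, 0 were higher and 3 lower, at 33.3% against the same 7.13%, and 2 were lower without KO library a. Sephs2, which makes the activated selenium donor and is itself a selenoprotein, counted in both lists, at 258, 411, 394 and 354 CPM in KO and 572, 578, 366 and 532 CPM in control libraries, where library c overlapped the KO libraries. Its log2 fold change was -0.53 (standard error 0.19, edgeR adjusted p = 0.256). Pstk, the kinase that acts on the charged tRNA, was at 2.63, 3.75, 2.67 and 3.61 CPM in KO and 4.79, 4.69, 5.54 and 4.44 CPM in control libraries, without overlap. Its log2 fold change was -0.62 (standard error 0.18, edgeR adjusted p = 0.176, DESeq2 adjusted p = 0.0340). The third gene, the selenocysteine lyase Scly on chromosome 1, had -0.31 (edgeR adjusted p = 0.326) and was named after its value was seen. Without chromosome 7, the count was 1 of 7 for selenocysteine synthesis and 1 of 14 for the other selenoproteins.

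Catalase works inside peroxisomes, next to the oxidases that make hydrogen peroxide. Of 16 peroxisome assembly genes, 0 were higher and 1 lower at an unadjusted p of 0.05, which is 6.25% of the list against 7.13% of all tested genes on the lower side, with a median log2 fold change of -0.07. That gene was Pex11g, of a family that shapes and divides peroxisomes, with 29.6, 51.0, 45.1 and 43.7 CPM in KO and 70.5, 75.4, 53.2 and 45.4 CPM in control libraries. Control library d was below KO library b, and the log2 fold change was -0.53 (standard error 0.19, edgeR adjusted p = 0.280). Of 20 tested genes for oxidases that release peroxide or superoxide, 0 were higher and 1 lower, which is 5% of the list, with a median of 0.06 on the log2 scale. Without KO library a, 2 were higher and 1 lower. The lower gene was Paox, a peroxisomal polyamine oxidase on chromosome 7, at no more than 14.2 CPM in any KO library and at 15.8 to 25.2 CPM in control mice (log2 fold change -0.57, edgeR adjusted p = 0.183).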

How the data were processed

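The authors extracted total RNA from liver, sequenced it and, per the study's methods, aligned and quantified the reads with HISAT2; the submitters' processing notes also name StringTie and mm10. Versions, the counting step, the use of strand and the annotation are not given in the sources used here. The library kit differs between the sources (KAPA RNA HyperPrep in the methods, NEBNext Ultra in the labels). They deposited a whole-number count per gene and library, without normalization. All 8 columns were used (0 left out). They carry the genotype but no mouse number, and the letters a to d follow the column order within a genotype.

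Genes were filtered with edgeR's filterByExpr (minimum count 10), which kept 15291 of 33212 genes; 12414 were at 0 in every library. Counts were scaled by TMM and tested with the quasi-likelihood test of edgeR 4.0.16 in R 4.3.3, Nnmt KO against control with no covariate, with p-values adjusted by Benjamini-Hochberg over all tested genes. Standard errors and 95% intervals follow from the test's F statistic and degrees of freedom. Library pairs of one genotype differed beyond counting error (chi-square per degree of freedom 39.9 to 248), so that none was a copy of another, and each was used as 1 sample; this does not show that they came from separate mice. Positions and exonic lengths came from GENCODE M21. Reads shared with pseudogenes or close relatives, as in the glutathione transferases, could have been split in counting. The test was tried first on simulated counts, with changes larger than any seen in the 10 genes. That trial does not show how well smaller changes are found.

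The 10 genes and the lists were chosen with earlier results of these data known. Of each of the 7 wider lists, the genes past an adjusted p of 0.05 and the 2 of smallest unadjusted p in each direction were named, where that p was under 0.05, along with the 3 genes most like Nqo1 by Pearson's r over log2 CPM (prior count 2). Symbols of 12 list genes were matched by identifier and of 2 by an older symbol. The alternatives were DESeq2 1.42.0, DESeq2's size factors, library size only, no filter, each library left out in turn and, added after seeing the data, leaving out chromosome 7.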

Additional observations from a re-analysis of the deposited data

Results flagged for a closer look

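In groups of 4 libraries, a value was picked out when its gap to the nearest other library, divided by the range of the group, was above Dixon's 95% critical value. Of 52 groups examined, 3 were picked out, and chance gives about 2.6. Nqo1 in Nnmt KO library b was at 17.3 CPM, below the other KO libraries at 21.1 to 21.8 CPM; without it the log2 fold change was 0.47 (edgeR adjusted p = 0.387). Gpx1 in Nnmt KO library a was at 1041 CPM, below the other KO libraries at 1467 to 1487 CPM, and without that library the log2 fold change went from -0.05 to 0.06. For KO library a, TMM gave a factor of 1.21, above those of the other KO libraries. The total of KO library a was 75643590 counts, against 75020072 in KO library d and 79043675 to 87934362 in the remaining libraries. The part of depth in this factor was not tested.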

How the results depend on the processing

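No paired analysis was possible because the columns of the table carry no mouse numbers. The sources used here also describe no pairs of Nnmt KO and control mice, so nothing shows that the design was paired. None of the 10 genes passed an adjusted p of 0.05 under any of 12 alternatives. Of their 120 values under these alternatives, 94 kept their direction and their side of an unadjusted p of 0.05, 12 lost that p, 1 gained it (Osgin1 without KO library a) and 13 changed sign, all of genes near 0. With library size only, Nfe2l2 was at 0.052 and Txnrd1 at 0.060 on the log2 scale. With 1 library left out, the log2 fold change ran from -0.067 to 0.038 for Nfe2l2, -0.11 to 0.066 for Txnrd1, -0.054 to 0.11 for Prdx1, -0.11 to 0.056 for Gpx1 and -0.18 to 0.036 for Gpx4.

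At an unadjusted p of 0.05, library size only gave 1 of the 10 genes (Nqo1) and 1 NRF2 regulator. It also gave 1 gene of superoxide and peroxide metabolism (Txnip) and 3 oxidases. Without chromosome 7 the counts were 1 selenoprotein, 1 gene of selenocysteine synthesis and 0 oxidases, since the called genes on that chromosome were not counted. With 1 library left out, the counts ran from 0 to 1 for the 10 genes (0 at an adjusted p) and 0 to 2 for the regulators. For the other NRF2 targets they ran from 4 (without control d) to 8 (without KO a). They ran from 1 to 3 for the genes of superoxide and peroxide metabolism, 2 to 3 for the selenoproteins and 2 to 4 for selenocysteine synthesis. For peroxisome assembly the counts were 0 to 2, and for the oxidases 1 to 4.

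Over all tested genes, the count past an adjusted p of 0.05 was 49 with TMM, 30 with DESeq2's size factors, 22 with library size only, 508 with DESeq2's test (216 higher, 292 lower) and 8 without the filter, and 6 (without KO c) to 149 (without KO a) with 1 library left out. The cause was not tested. The count past an unadjusted p of 0.05 ran from 1259 to 2194 with 1 library left out; it was 834 higher and 1091 lower with TMM, and 818 higher and 620 lower with library size only, which moved the median of all genes from 0.02 to 0.07. The intervals given for each gene show how closely its difference was estimated from 4 libraries per genotype. The smallest difference that could have been detected was not computed.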

Other observations

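The 3 tested genes whose levels most resembled those of Nqo1 over the 8 libraries were Akr1c19, an aldo-keto reductase (Pearson's r = 0.965, Spearman's rho = 0.905), Rdh9, a retinol dehydrogenase (r = 0.959, rho = 0.929), and Ankrd39 (r = 0.932, rho = 0.571). These were the highest of 15281 genes compared in log2 CPM, over libraries that include both genotypes, and they are a description with no test. Akr1c19 had a log2 fold change of 0.57 between genotypes (edgeR adjusted p = 0.169), Rdh9 one of 0.40 (adjusted p = 0.321) and Ankrd39 one of 0.24 (adjusted p = 0.618).

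Markers of lymphocytes, summed over 6 genes, were at 3.95 to 4.84 CPM in Nnmt KO and 2.55 to 3.08 CPM in control mice, and 2 of 6 were higher at an unadjusted p of 0.05. Stellate cell markers had 3 of 8 higher, cholangiocyte markers 1 of 6 higher and red blood cell markers 1 of 5 tested lower. Among all tested genes, 5.45% were higher and 7.13% lower at that p, and lists this short hold few genes. The stellate sum was 827 CPM in KO library a, 457 to 498 CPM in the other KO libraries and 352 to 524 CPM in control libraries. Macrophage markers had 0 of 8, neutrophil markers 0 of 3 tested and sinusoidal endothelial markers 0 of 6 past that p. The neutrophil marker Ly6g was at 0 in all libraries. The part of these cells in the values of the 10 genes was not tested.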
